A study of Arabidopsis thaliana with 12 samples.

Results

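Late embryogenesis abundant (LEA) genes of Arabidopsis thaliana were followed over 4 genotypes. The members were 49 loci of the LEA families, chosen by locus from the published family groups and matched to the probes of the array, with COR15A and COR15B left out. All 49 of the 25383 loci on the array were found, on 69 probes, and 41 of them were bright enough to be tested among 18977 genes. They comprised 10 dehydrins, 3 genes of group LEA_1, 3 of LEA_2, 4 of LEA_3, 16 of LEA_4, 2 of LEA_5, 6 of SMP (seed maturation proteins), 3 of PvLEA18 and 2 of AtM. Of these, 10, 3, 3, 3, 13, 2, 3, 2 and 2 were tested.

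LEA proteins are small, very hydrophilic proteins, many of them without a fixed fold in solution, which accumulate in seeds as they dry and are known for protecting membranes and other proteins during water loss. The genes fall into groups with little sequence in common. Many are active mainly in the maturing embryo under the transcription factors ABI3 and ABI5 and the hormone abscisic acid, and their transcripts decline after germination. Others, among them the acidic dehydrins COR47, ERD10 and ERD14, are also active in leaves and rise there under cold or drought.

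The seedlings were 10 days old, of ecotype Col-0, untreated, and grown on GM medium in long days of 16 h light and 8 h dark at 150 µE. Whole seedlings were collected midway through the light phase. The 4 genotypes, with 3 arrays each, were wild type (WT), arf2 (allele arf2-8), gnc gnl, and libraries labelled arf2-8 gnc gnl, called the labelled libraries, since 2 of their transcripts went against the label. ARF2 is an auxin response factor known as a repressor, and GNC and GNL are paired GATA factors known for promoting greening. The alleles of gnc and gnl are not given in the sources used here. The series compared the transcriptomes of these genotypes.

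The level of a transcript is given as log2 of the array signal minus the log2 of the array's 75th percentile, so 0 marks that percentile, and levels of different genes, which rest on different probes, are not set against each other. The 75th percentile signal of the arrays ran from 2062 to 2872, and between 64.6% and 70.2% of all probes exceeded background clearly (the scanner software calls them well above background). Libraries of the same genotype correlated at 0.989 to 0.993 across genes. The ARF2 transcript stood at 0.392% to 3.04% of the WT mean in arf2 and the GNC transcript at 3.92% to 5.90% in gnc gnl, where GNL was not well above background. Among the arf2 libraries, ARF2 was well above background in replicate 3 only, so the lower percentages are not measured levels. In the labelled libraries (labelled arf2 gnc gnl), GNC stood at 5.62% to 6.38% of WT, but ARF2 stood at 54.4% to 70.6% and GNL at 168% to 180%. The ARF2 and GNL transcripts thus went against that label, and every value of these libraries is given under the label only. Arrays lay on 3 slides, and no slide held WT with gnc gnl, WT with the labelled libraries, or arf2 with gnc gnl.

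In arf2, 26 of the 41 tested members rose against WT and 0 fell, where 5.69% of all tested genes were called, 2.49% up and 3.2% down (limma, adjusted p under 0.05). The median log2 change of the 41 members was 1.85, against -0.0029 over all tested genes, and 36 of the 41 lay above WT. In gnc gnl, 7 members rose and 2 fell, where 12.6% of all tested genes rose and 11.9% fell, with a median member change of 0.31 against 0.0066 over all tested genes. The sign of that median was not stable, at -0.06 with normexp background correction and -0.04 without gnc gnl replicate 2. In the labelled libraries, 14 members rose and 1 fell, where 2.27% of all tested genes were called, 1.33% up and 0.943% down, with a median member change of 1.28 against -0.0075. That median was 0.53 with normexp, where 1 member was called, and 0.84 without labelled replicate 1. These comparisons share the same 3 WT libraries. In RNA from whole seedlings, fewer cells of a type and less RNA per cell cannot be told apart.

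**Figure D1:**
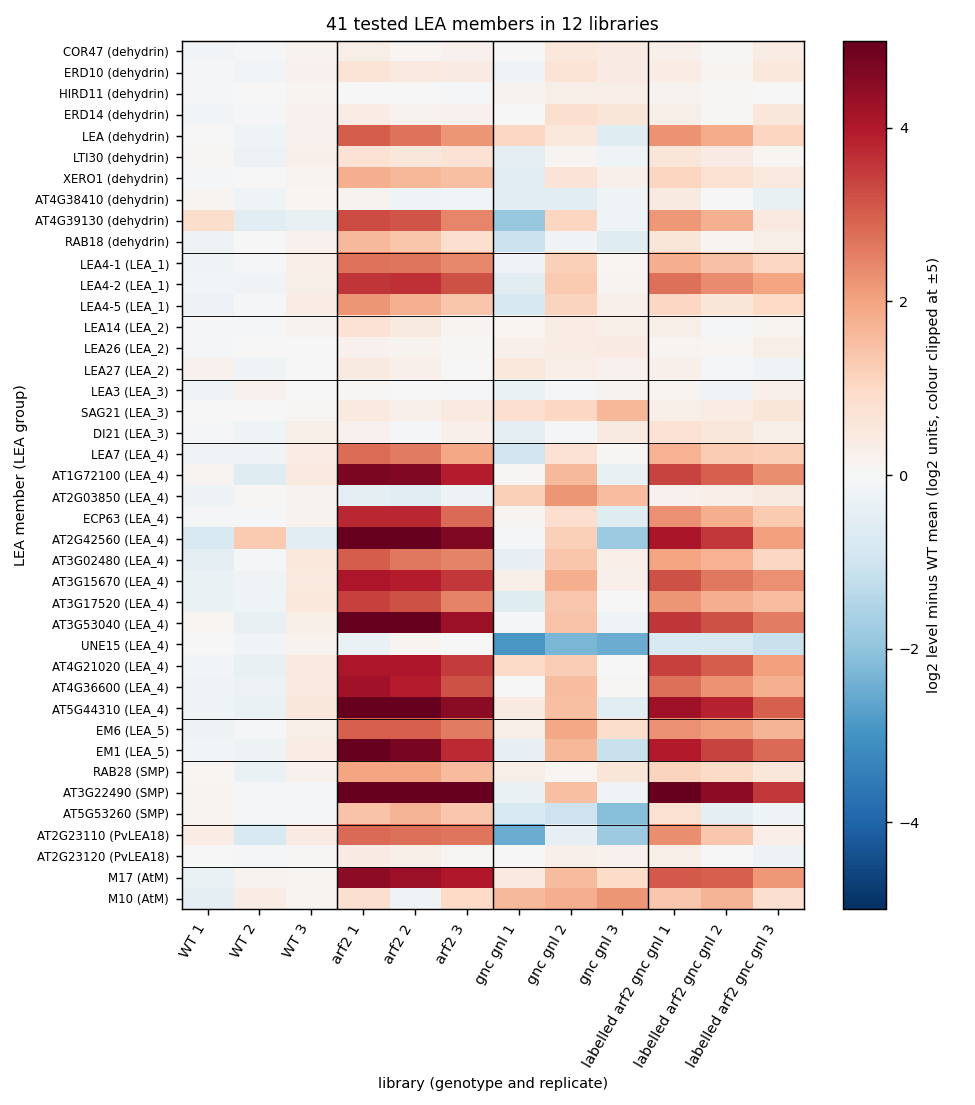
Log2 level of the 41 tested LEA members in the 12 libraries, each minus the mean of the 3 WT libraries, as colour (clipped at 5 log2 units either way), with members in rows by LEA group and libraries in columns by genotype. Most LEA_1, LEA_4, LEA_5 and SMP members are red in all arf2 libraries, paler red in the labelled libraries, and near the WT level in gnc gnl replicates 1 and 3, while COR47, ERD10, HIRD11 and ERD14 and the LEA_2 and LEA_3 members stay pale.

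On slide 1, which held the 3 WT arrays and arf2 replicate 1, the median log2 change of 39 members was 2.72. With a single arf2 array this value carries no spread between arf2 libraries. With slide as a block over all 12 arrays, the arf2 change still rested on arf2 replicate 1, the only arf2 array beside WT. It was therefore the slide 1 change again and no separate check, with a median of 2.21 over 41 members. In that fit 20 of 41 rose, and LTI30, AT4G39130, RAB18, LEA4-5, AT5G53260 and AT2G23110 were no longer called. In arf2 the libraries of 29 members lay wholly above WT and of 1 wholly below, against 11.6% and 14% of all tested genes. All 26 members that rose in arf2 lay above WT in every alternative in which they had a value. They were chosen by their rise in these same arrays, so this direction is no separate support. With normexp 14 of the 26 were still called. The seed storage and oil body genes, 12 markers of the embryo and none of them a LEA gene, all lay above WT in arf2. They did so in the labelled libraries too, and in gnc gnl, where the median LEA change was only 0.31. Their summed level (linear signal relative to the 75th percentile) ran from 1.12 to 1.85 in WT, 52.3 to 88.3 in arf2, 2.51 to 32.7 in gnc gnl and 13.7 to 50.8 in the labelled libraries. Of the 12 markers, 5 to 7 were well above background in WT libraries, 10 in each arf2 library, 11 or 12 in gnc gnl and 10 to 12 in the labelled libraries. Their part in the LEA result was not tested. All 5 green leaf markers were well above background in every library, 4 or 5 of the 5 root markers were, and at most 1 of the 3 pollen markers was. Detection does not mean equal levels. In arf2 all 5 green leaf markers lay above WT with 0 called, and 1 root marker fell, where 3.2% of all tested genes fell. In gnc gnl 2 root markers rose, where 12.6% of all tested genes rose.

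The LEA_4 group, the family of seed proteins with repeated motifs predicted to form helices when dry, held 8 of the 12 members with the largest changes in arf2. There, 11 of its 13 tested members rose, with a group median of 3.77 on the log2 scale. AT3G53040 had levels of -2.33, -2.83 and -2.17 in WT and of 2.59, 2.69 and 1.84 in arf2. Its 3 arf2 libraries all lay far above the 3 WT libraries, and the fold was 28.2 (log2 4.82 ± 0.42 SE, limma adjusted p = 0.000109). AT5G44310 rose 30.9-fold, from -3.75, -3.87 and -2.98 in WT to 1.61, 1.66 and 0.97 in arf2 (log2 4.95 ± 0.47, limma adjusted p = 0.000179). AT1G72100 rose 21.3-fold, from -4.18, -4.95 and -3.86 to 0.36, 0.31 and -0.41 (log2 4.41 ± 0.48, limma adjusted p = 0.000353). In each of these genes arf2 replicate 3 was the lowest of the arf2 libraries.

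AT2G42560 was well above background in WT replicate 2 only, with levels of -5.72, -3.67 and -5.51 in WT and of 0.61, 0.69 and -0.32 in arf2. Its fitted fold was 39.1 (log2 5.29 ± 0.78, limma adjusted p = 0.00275), and the log2 change ran from 4.91 to 5.94 without 1 library, the highest without WT replicate 2. AT4G21020, AT3G15670, AT4G36600 and ECP63 (an embryogenic cell protein) rose by 3.86, 3.83, 3.77 and 3.45 on the log2 scale, with SE of 0.37 to 0.42 and limma adjusted p of 0.00021 to 0.000408. For these members the arf2 libraries did not overlap the WT libraries. AT3G17520, AT3G02480 and LEA7 rose by 3.03, 2.72 and 2.44. LEA7 had levels of 1.82, 1.81 and 2.38 in WT and of 4.80, 4.58 and 3.95 in arf2, a 5.44-fold rise (limma adjusted p = 0.00309).

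In gnc gnl, 1 of the 13 LEA_4 members rose and 1 fell, and the group median was 0.43. AT2G03850 was not well above background in WT or arf2, with levels of -5.93, -5.62 and -5.50 in WT, and stood at -4.48, -3.49 and -4.15 in gnc gnl. It was at least 3.06-fold higher in gnc gnl than in WT (limma adjusted p = 0.000703), and it entered the test only through gnc gnl. Its log2 change ran from 1.37 to 1.87 without 1 library. Over all alternatives the change of AT2G03850 went as low as 0.21, and its call was lost in 2 of 22. UNE15, named for the unfertilized embryo sac of its mutant, had levels of -1.97, -2.16 and -1.83 in WT, of -2.32, -1.87 and -1.99 in arf2 and of -4.90, -4.25 and -4.47 in gnc gnl. The gnc gnl libraries all lay below every other library, a 5.87-fold fall (log2 -2.55 ± 0.18, limma adjusted p = 1.84e-05). With slide as a block UNE15 was the only member called in this comparison (log2 -2.59, limma adjusted p = 0.045). The other 11 members gave changes of -0.23 to 0.79, and 0 of them passed the threshold.

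In the labelled libraries, 7 LEA_4 members rose against WT and 1 fell, with a group median of 2.26. AT3G53040 stood at 1.14, 0.72 and 0.13 there, above every WT library and below every arf2 library (log2 3.11 ± 0.42 against WT, limma adjusted p = 0.00463). AT5G44310, AT1G72100, AT4G21020, AT3G15670, AT4G36600 and ECP63 rose by 3.69, 2.90, 2.83, 2.71, 2.26 and 1.80. AT2G42560 stood 3.23 ± 0.78 above WT without passing the threshold (limma adjusted p = 0.06). Without 1 library, the calls of ECP63, AT4G36600 and AT1G72100 were lost in 5, 4 and 3 of 12 fits, all of them fits without a WT replicate or without labelled replicate 1 or 2, with adjusted p of at most 0.138, 0.102 and 0.0684. UNE15 fell, from the WT levels above to -2.76, -2.76 and -3.11 (log2 -0.89 ± 0.18, limma adjusted p = 0.0282). Its labelled libraries lay below WT and above gnc gnl, and its call was lost without any 1 of the WT or labelled libraries, with adjusted p of at most 0.0924.

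**Figure D2:**
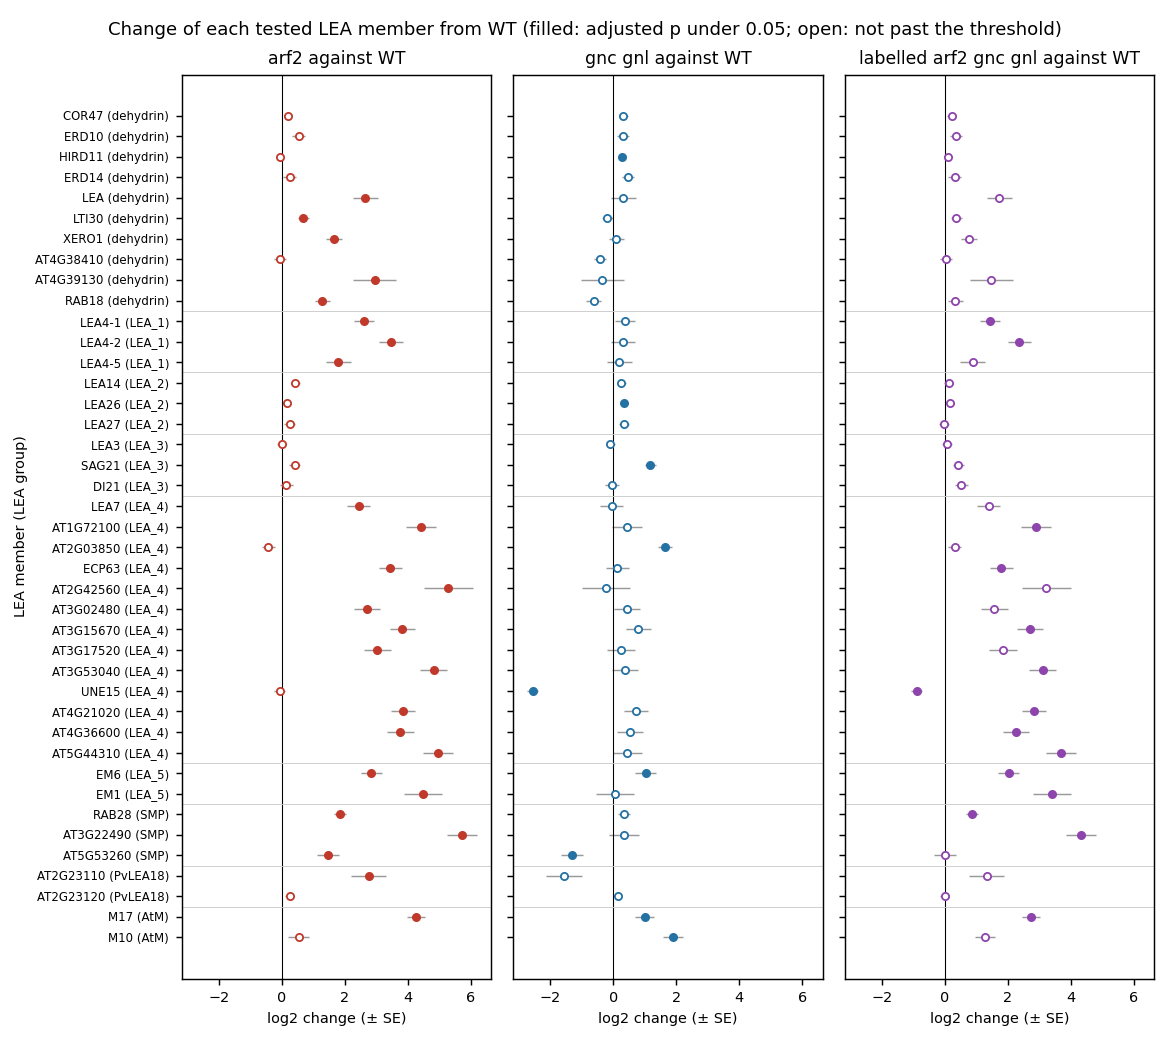
Log2 change from WT of each tested LEA member (point) with its standard error (bar) in arf2, gnc gnl and the labelled libraries (panels), where filled points passed an adjusted p of 0.05. In arf2 the filled points are 26 and all lie right of 0, in gnc gnl 7 lie right and 2 left of 0, and in the labelled libraries 14 lie right and 1 left.

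The LEA_5 group holds the Em proteins EM1 and EM6, abundant in dry seeds and known as direct ABI5 targets. Both rose in arf2 and in the labelled libraries. EM6 had levels of -0.82, -0.59 and -0.24 in WT, of 2.42, 2.42 and 2.05 in arf2, of -0.27, 1.37 and 0.34 in gnc gnl and of 1.75, 1.54 and 1.14 in the labelled libraries. It rose 7.19-fold in arf2 (log2 2.85 ± 0.34, limma adjusted p = 0.000675), 4.07-fold in the labelled libraries (adjusted p = 0.0128) and 2.04-fold in gnc gnl (adjusted p = 0.0469). Its gnc gnl libraries overlapped WT, and the gnc gnl call was lost in 11 of 12 fits without 1 library, the exception being the fit without gnc gnl replicate 1, with adjusted p of at most 0.131. EM1 rose 22.5-fold in arf2, from -4.16, -4.30 and -3.67 in WT to 0.98, 0.69 and -0.32 (limma adjusted p = 0.00157), and 10.5-fold in the labelled libraries (adjusted p = 0.0176). The other EM1 probe, too dim to pass the filter, gave log2 changes of 0.85 in arf2, -0.26 in gnc gnl and -0.07 in the labelled libraries. In the labelled libraries the calls of EM6 and EM1 were lost without WT replicate 1 or 2 or labelled replicate 1 or 2, with adjusted p of at most 0.0641 and 0.0852. In gnc gnl the EM1 levels were -4.46, -2.40 and -5.16, a change of 0.04 ± 0.60, with replicate 2 far above the other libraries of that genotype.

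All 3 tested SMP members rose in arf2. AT3G22490 was not well above background in WT or gnc gnl and had levels of -1.18, -1.22 and -2.21 in arf2 and of -2.29, -2.79 and -3.71 in the labelled libraries. It was at least 20.9-fold higher than WT in arf2 (limma adjusted p = 8.81e-05) and at least 7.97-fold higher in the labelled libraries (adjusted p = 0.00177). Its other probe gave log2 changes of 4.29 in arf2 and 2.81 in the labelled libraries, against 5.72 and 4.33 for the probe used. Over all alternatives the change of AT3G22490 went as low as 2.59 in arf2 and 1.21 in the labelled libraries. RAB28, an abscisic acid-responsive seed protein, stood at -4.14, -4.56 and -4.02 in WT and rose to -2.27, -2.25 and -2.66 in arf2, a 3.6-fold change (limma adjusted p = 0.000278). RAB28 rose 1.83-fold in the labelled libraries (adjusted p = 0.0436), a call lost without any 1 of the WT libraries, arf2 replicates 1 and 2, gnc gnl replicate 1 and labelled replicates 1 and 2, with adjusted p of at most 0.179.

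AT5G53260 was the SMP member that moved both ways. It was well above background in WT replicate 1 only, in all 3 arf2 libraries and in no gnc gnl library, so it entered the test only through arf2. Its levels were -5.28, -5.50 and -5.47 in WT, -3.99, -3.74 and -4.09 in arf2, and -6.18, -6.47 and -7.54 in gnc gnl. It rose 2.79-fold in arf2 (limma adjusted p = 0.0344) and was at least 1.97-fold lower in gnc gnl (adjusted p = 0.0211). The arf2 call was lost without any 1 of the WT libraries or arf2 replicates 1 and 2 (adjusted p of at most 0.125), and the gnc gnl call without any 1 of the WT libraries or gnc gnl replicate 3 (at most 0.0609). Next to it lies AT5G53270, another SMP gene, too dim to be tested.

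The AtM genes M17 and M10, known from late embryos, are neighbours in the RefSeq gene table and gave unlike values. M17 had levels of -1.62, -1.12 and -1.16 in WT and of 3.19, 2.99 and 2.70 in arf2, a 19.2-fold rise (log2 4.26 ± 0.30, limma adjusted p = 4.07e-05). In gnc gnl M17 stood at -0.81, 0.29 and -0.38, a rise of 1.0 on the log2 scale (adjusted p = 0.0322) lost without WT replicate 1, 2 or 3 or gnc gnl replicate 2 or 3, with adjusted p of at most 0.105, and in the labelled libraries at 1.76, 1.70 and 0.85, a 6.67-fold rise (adjusted p = 0.00174). M10 was not well above background in WT, where it stood at -6.16, -5.33 and -5.55, and in arf2 was so in replicate 3 only. It stood at -4.05, -3.85 and -3.46 in gnc gnl, at least 3.72-fold higher than in WT (limma adjusted p = 0.00311). This bound equals the fitted log2 change of 1.90, which ran from 1.65 to 2.07 without 1 library. Over all alternatives the change of M10 went as low as 0.28, and its call was lost in 2 of 23. M10 stood at -4.35, -3.97 and -4.90 in the labelled libraries, above every WT library, without passing the threshold (adjusted p = 0.0758). M10 was thus called in gnc gnl and not in arf2, and it was 2.56-fold lower in arf2 than in gnc gnl (adjusted p = 0.00899).

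All 3 LEA_1 members rose in arf2 and 0 of 3 passed in gnc gnl, where all 3 lay above WT by 0.20 to 0.37. An unadjusted limma p under 0.05 held there for 0 of them, against 7241 of all 18977 tested genes. LEA4-2, LEA4-1 and LEA4-5 encode drought- and abscisic acid-responsive proteins present in seeds. LEA4-2 rose 11.1-fold in arf2, from -3.20, -3.23 and -2.78 in WT to 0.50, 0.58 and 0.12 (log2 3.47 ± 0.37, limma adjusted p = 0.000334). LEA4-1 rose 6.1-fold (adjusted p = 0.000724). LEA4-5 had levels of -0.98, -0.80 and -0.32 in WT, of 1.52, 1.07 and 0.69 in arf2, of -1.49, 0.42 and -0.44 in gnc gnl and of 0.35, -0.10 and 0.29 in the labelled libraries. Its arf2 libraries lay above all the others (log2 1.79 ± 0.39 against WT, adjusted p = 0.0256), though the call was lost on removing replicate 1 or 2 of WT or of arf2 (adjusted p of at most 0.107). LEA4-2 and LEA4-1 rose 5.16-fold and 2.69-fold in the labelled libraries. The LEA4-2 call was lost without WT replicate 2 (adjusted p = 0.0531), and the LEA4-1 call in 9 of 12 fits, all but those without arf2 replicate 3 or gnc gnl replicate 1 or 2 (at most 0.166).

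The dehydrins, recognised by a lysine-rich segment that binds membranes, divided by member. In arf2, 5 of 10 rose, with a group median of 0.61. RAB18, a classic abscisic acid-responsive gene, had levels of 3.13, 3.40 and 3.60 in WT, of 4.99, 4.75 and 4.23 in arf2, of 2.3, 3.19 and 2.77 in gnc gnl and of 3.97, 3.52 and 3.66 in the labelled libraries. Every arf2 library lay above every other library, and RAB18 rose 2.43-fold (log2 1.28 ± 0.24, limma adjusted p = 0.0115). Its 4 probes gave log2 changes of 1.05 to 1.43. AT4G39130, AT2G21490 (symbol LEA), XERO1 and LTI30 rose by 2.95, 2.65, 1.65 and 0.68. AT4G39130 was well above background in WT replicate 1 only, and its call was lost without WT replicate 2 or 3, arf2 replicate 1 or 2 or labelled replicate 2 (adjusted p of at most 0.111). The RAB18 call was lost without WT replicate 1 or arf2 replicate 1 or 2 (at most 0.0596), and the LTI30 call in 9 of 12 fits, all but those without gnc gnl replicate 1 or 2 or labelled replicate 3 (at most 0.143). XERO1 and LTI30 are neighbours in the gene table.

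The dehydrins known from green tissue gave small changes. ERD14 had levels of 5.11, 5.13 and 5.47 in WT, 5.63, 5.41 and 5.44 in arf2, 5.22, 6.06 and 5.85 in gnc gnl, and 5.53, 5.32 and 5.82 in the labelled libraries. ERD14 was called in gnc gnl only without gnc gnl replicate 1 (log2 0.72, adjusted p = 0.0124). The groups overlapped, and the changes from WT were 0.25, 0.47 and 0.31, each ± 0.20 (limma adjusted p = 0.568, 0.107 and 0.419). The 6 ERD14 probes disagreed in sign, from -0.17 to 0.47 in gnc gnl and from -0.02 to 0.31 in the labelled libraries. COR47 and ERD10, neighbours in the genome, lay above WT by 0.20 to 0.53 in all 3 comparisons without passing the threshold. The other COR47 probes gave smaller changes, 0.02 and 0.0003 in arf2, 0.17 and 0.17 in gnc gnl, and 0.04 and 0.05 in the labelled libraries. HIRD11, a histidine-rich dehydrin that binds metal ions, rose 1.2-fold in gnc gnl, from 4.54, 4.61 and 4.75 to 4.79, 4.95 and 4.96 (limma adjusted p = 0.0322). Its other probe gave -0.04, and the call was lost without WT replicate 1 or 2 or gnc gnl replicate 2 or 3 (at most 0.107). In the labelled libraries, 0 of 10 dehydrins passed in limma, and all 10 lay above WT. An unadjusted p under 0.05 held for 2 of the 10, against 3563 of all 18977 tested genes.

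**Figure D3:**
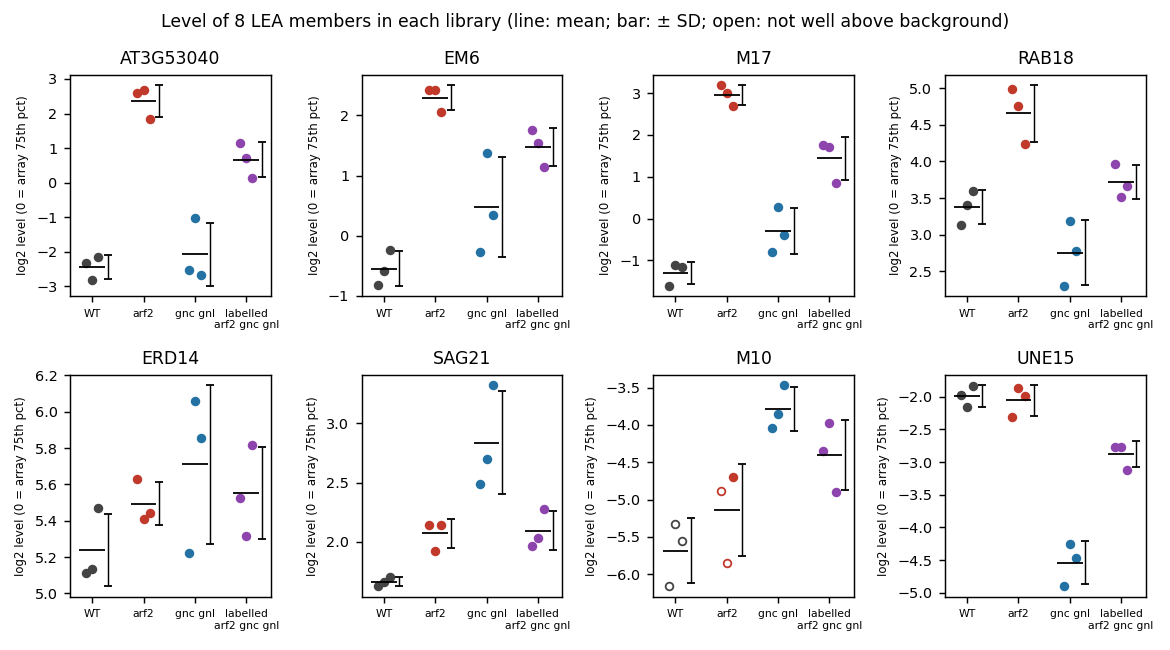
Log2 level of 8 LEA members (panels) in each library (points; open points were not well above background), by genotype, with the mean (line) and SD (bar) of 3 libraries; 0 is the array's 75th percentile. AT3G53040, EM6, M17 and RAB18 are highest in arf2, ERD14 overlaps among all genotypes, SAG21 is highest in gnc gnl, and UNE15 is lowest there. The M10 mean is highest in gnc gnl, though labelled replicate 2 (-3.97) lies above gnc gnl replicate 1 (-4.05).

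In the LEA_2 and LEA_3 groups, 0 of 3 and 0 of 3 tested members passed in arf2, with 1 of each at an unadjusted p under 0.05 in limma. Over all tested genes, 3599 of 18977 had such a p in that comparison. LEA_2 proteins are the atypical LEA proteins with a stable fold. LEA14, LEA27 and LEA26 lay above WT in arf2 by 0.44, 0.25 and 0.15. LEA26 had levels of 3.81, 3.92 and 3.92 in WT and of 4.12, 4.24 and 4.29 in gnc gnl, where it rose 1.26-fold (limma adjusted p = 0.0124). Its 3 probes gave changes of 0.11 to 0.33.

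Among the LEA_3 members, SAG21, a mitochondrial protein known from senescence and oxidative stress, rose in gnc gnl. Its levels were 1.62, 1.66 and 1.70 in WT, 2.14, 1.93 and 2.14 in arf2, 2.49, 2.70 and 3.32 in gnc gnl, and 1.96, 2.04 and 2.28 in the labelled libraries. Every library of the other genotypes lay above the WT libraries and the gnc gnl libraries lay above all others. The gnc gnl change passed (2.26-fold, log2 1.17 ± 0.18, limma adjusted p = 0.00157), and those of 0.41 and 0.43 in arf2 and in the labelled libraries did not (adjusted p = 0.237 and 0.22). Both SAG21 probes rose in gnc gnl, by 1.17 and 1.33. DI21, a drought-induced gene, gave changes of 0.14, -0.04 and 0.53 in arf2, gnc gnl and the labelled libraries, each ± 0.21, with overlapping levels of 2.15 to 2.63 in WT and 2.31 to 2.6 in arf2. The labelled libraries of DI21, at 3.06, 2.91 and 2.67, all lay above WT (limma adjusted p = 0.213). LEA3 gave changes of -0.09 to 0.07.

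Of the PvLEA18 genes, AT2G23110 rose 6.77-fold in arf2, from -4.93, -6.09 and -4.92 in WT to -2.48, -2.55 and -2.63 (limma adjusted p = 0.017), with WT replicate 2 not well above background and the call lost on removing replicate 2 of WT or replicate 1 or 2 of arf2 (at most 0.0596). It was not well above background in gnc gnl. Its neighbour AT2G23120 stood at 2.80 to 2.93 in WT and 2.92 to 3.27 in arf2, which overlap, a change of 0.25 ± 0.14 (adjusted p = 0.374).

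The 8 members that were not tested were not well above background on any of the 12 arrays. They were AT3G53770 of LEA_3, AT2G03740, AT2G18340 and AT4G13230 of LEA_4, ECP31, AT5G27980 and AT5G53270 of SMP, and AT2G33690 of PvLEA18. ECP31 lies next to AT3G22490. Of the 41 tested members, 33 were well above background on all 12 arrays. Of the 26 that rose in arf2, 21 were well above background in all 3 WT libraries, 4 in some of them and 1 in none.

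The gnc gnl comparison called 9 members in all, where 24.6% of all tested genes were called. The gnc gnl libraries of 6 members lay wholly above WT and of 3 wholly below, against 22.1% and 20.4% of all tested genes. The count was 5 without WT replicate 1, WT replicate 2 or gnc gnl replicate 3. No slide held both groups. With slide as a block, which ties the groups through the other genotypes, 1 member was called and the median member change was 1.01. The median LEA_4 level relative to the WT mean was -0.01, 1.39 and -0.03 in the 3 gnc gnl libraries, with replicate 2 above the others. Among the 12 storage and oil body genes 8 rose in gnc gnl, with a median change of 4.09, and their median relative to the WT mean was 5.98, 3.60 and 2.38 in the same libraries. Among the gnc gnl libraries, the one with the highest storage value was not the one with the highest LEA_4 value. The labelled libraries had the same order in both lists, with storage medians of 5.59, 4.65 and 2.53 and LEA_4 medians of 2.74, 2.24 and 1.79. Of the arf2 libraries, replicate 3 was lowest in both (4.57 and 3.20), while replicate 2 was highest for storage (4.88) and replicate 1 for LEA_4 (4.03). In arf2, 8 of the 12 storage genes rose as well, with a median change of 4.74. The difference between the lists was not tested.

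**Figure D4:**
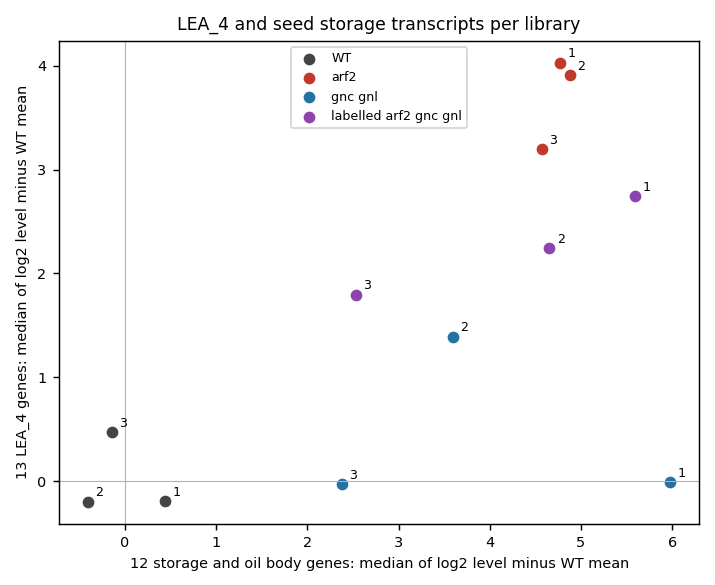
Each point is 1 library, numbered by replicate: on the x axis the median over 12 storage and oil body genes, and on the y axis the median over the 13 tested LEA_4 genes, of the log2 level minus the WT mean. The 3 arf2 libraries lie at 4.57 to 4.88 on the x axis and 3.20 to 4.03 on the y axis, while gnc gnl replicate 1 lies at 5.98 on the x axis and -0.01 on the y axis. The labelled libraries lie at 2.53 to 5.59 on the x axis and 1.79 to 2.74 on the y axis.

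Direct comparison of arf2 with gnc gnl gave 27 members higher and 4 lower in arf2, where 16.9% of all tested genes were higher and 19.5% lower, with a median member change of 2.23. AT2G03850, M10, SAG21 and HIRD11 were the 4 lower in arf2. Of the LEA_4 group 12 of 13 were higher in arf2, by 2.28 (AT3G02480) to 5.52 (AT2G42560) on the log2 scale. No slide held both groups, and 2 members were called with slide as a block, with a median of 1.55.

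The labelled libraries were set against arf2 and against gnc gnl. Against arf2, 0 members rose and 9 fell in limma, where 8.96% of all tested genes were called, 4.27% up and 4.69% down, and 31 of 41 lay below arf2 with a median change of -0.94. Those that fell were AT3G53040, ECP63, AT4G36600 and UNE15 of LEA_4, M17, AT5G53260, RAB28, LEA4-1 and RAB18. AT3G53040 fell by 1.71 ± 0.42 (limma adjusted p = 0.0325) and M17 by 1.52 ± 0.30 (adjusted p = 0.0175). On slide 2, with 2 arrays of each, the median was -0.73 and limma called 0 of 40 members, with 24 at an unadjusted p under 0.05. The count was 1, 0, 5, 0 and 0 without arf2 replicate 1, arf2 replicate 2 and labelled replicates 1, 2 and 3, and 18 without gnc gnl replicate 2.

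Against gnc gnl, 19 members of the labelled libraries rose and 2 fell, where 5.28% of all tested genes rose and 6.39% fell, with a median of 1.05. Of the LEA_4 group 11 of 13 rose. AT3G22490 was at least 9.39-fold higher (limma adjusted p = 0.00121), and AT2G42560, EM1 and AT5G44310 rose by 3.46, 3.35 and 3.24 on the log2 scale. AT2G03850 and SAG21 fell by 1.33 and 0.74. With the replicate number as a block, AT3G17520 was no longer called (limma adjusted p = 0.0523) and LEA27 fell by 0.37 (adjusted p = 0.0341, against 0.148 without the block). On slide 3, with 1 labelled array and 3 gnc gnl arrays, the median was 0.76. With a single labelled array that value carries no spread between labelled libraries. The count was 11 and 13 without labelled replicates 1 and 2. Against WT, the 15 calls of the labelled libraries came to 8, 6, 7 and 7 without WT replicate 1, WT replicate 2, labelled replicate 1 and labelled replicate 2. With slide as a block limma called 0 of 41 members against WT, with 22 at an unadjusted p under 0.05 and a median of 1.79.

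The interaction asked whether the difference between the labelled libraries and gnc gnl equalled that between arf2 and WT. It passed for 4 of 41 members, 1 positive and 3 negative, where 1.52% and 1.13% of all tested genes passed in these directions, and 36 of 41 members were negative with a median of -1.12 (-0.58 with normexp and -0.64 without gnc gnl replicate 2). M17 gave -2.52 ± 0.42 (limma adjusted p = 0.0152), RAB28 -1.31 ± 0.27 (adjusted p = 0.0359), SAG21 -1.15 ± 0.25 (adjusted p = 0.0392) and UNE15 1.73 ± 0.25 (adjusted p = 0.00915). The M17 difference was 4.26 between arf2 and WT and 1.74 between the labelled libraries and gnc gnl. The count was 2 without any 1 of WT replicates 1, 2 and 3, arf2 replicates 1 and 2, and labelled replicates 1 and 2. The value rests on the libraries whose ARF2 and GNL transcripts went against their label.

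Regulators known to act on LEA genes were listed as 24 genes, of which 23 were on the array and 17 were tested. In arf2, 4 of the 17 rose and 0 fell, where 2.49% of all tested genes rose. ABI5, the bZIP factor of the abscisic acid response in seeds, rose by 2.18 ± 0.27 (limma adjusted p = 0.000845). ABI3, the B3 factor of seed maturation, was not well above background in WT and was at least 3.71-fold higher in arf2 (adjusted p = 0.00133). ABF2 and ABF4, bZIP factors of vegetative abscisic acid responses, rose by 0.50 and 0.40 (adjusted p = 0.0448 and 0.0181). In gnc gnl 1 regulator rose, the kinase gene SNRK2.2, by 0.32, and 6 fell, where 12.6% of all tested genes rose and 11.9% fell. WT and gnc gnl shared no slide. Those were the cold and drought factors CBF2 (-1.58) and DREB2A (-0.68), ABF1 (-0.53), ABF2 (-0.39), ABF4 (-0.23) and HSI2 (-0.50), also known as VAL1, a repressor of seed maturation genes. Among the regulators limma called 0 of 17 in the labelled libraries, with 5 at an unadjusted p under 0.05, against 3563 of all 18977 tested genes.

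As a description over the 12 arrays, which share the genotype differences, the log2 levels of LEA_4 members correlated pairwise with a median Pearson's r of 0.95 (range -0.89 to 0.997), LEA_1 members with 0.93, dehydrins with 0.46 and LEA_3 members with 0.08. COR47 was most like ERD14 (0.98), M10 most like SAG21 (0.81), and AT2G03850 most like HIRD11 (0.88).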

How the data were processed

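Cy3-labelled cRNA from 0.5 µg total RNA of whole seedlings was hybridised to 12 Agilent arrays of 1 colour, per the labels' protocols, with 3 arrays for each of 4 genotypes, described in the series design as biologically independent. The deposited scanner files hold spot intensity on a linear scale, which per the file headers was background-subtracted within each array, with Agilent Feature Extraction (version 10.7.3.1) given in the submitters' processing notes. The deposited series values held the same intensity values, with 0 cells that differed, and were not used as an alternative.

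Of the 45220 spots, control and outlier spots were left out and spots of a probe were averaged. The log2 of the deposited intensity minus that of the array's 75th percentile was analysed. Among several probes of a gene (12 members), the one of highest mean was used. Genes entered the test if, in 1 genotype or more, all 3 arrays were well above background, and if each genotype had at least 2 values, which left 18977 genes, 646 of them with a missing value but no LEA member. A single limma 3.58.1 model held 1 mean for each genotype in R 4.3.3 (package data.table, version 1.17.8), with 8 residual degrees of freedom. Adjusted p is limma's moderated p after Benjamini-Hochberg adjustment over all tested genes of a comparison, with a threshold of 0.05. Standard errors follow the ± sign of log2 changes. Only the fit of arf2 against WT was tried on simulated data, with independent noise for each gene. The simulation held no slide effect and no background limit, so it cannot speak to slides or dim probes. Figures were drawn with matplotlib 3.10.9. The number of arrays limits the precision.

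Folds written with "at least" are bounds, used where no array of the dimmer group measured the gene well above background. They divide the brighter mean by the mean of each dim array's detection limit (its lowest signal well above background) or of the probe's own signal if that was higher. Where the probe's own signal was higher on every dim array, the bound equals the fitted fold. The bounds do not cover the spread between libraries or other processing, and some alternatives gave smaller folds.

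The members, the LEA groups, the marker and regulator lists and the tests were chosen with earlier results of these data known. The LEA groups were assigned from the published classification, not from a file, and locus symbols came from the RefSeq annotation of assembly TAIR10.1, while the array was designed on another build, and coordinates are therefore left out. Named members were those past the threshold against WT, or the 12 with the largest change where more passed, and the brightest of each LEA group. Others were named after their values were seen. No sequences were used here.

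Alternatives were quantile normalization, normexp background correction of the median spot signal (offset 50), the filter on dim probes dropped or made stricter, keeping outlier spots, averaging all probes, slide as a fixed or random block, single slides, a replicate block, fits of only those groups being compared, the fit without the labelled libraries, and leaving out each array. Replicate numbers come from the labels, which do not say that a number marks a shared batch. Same-numbered libraries of the labelled and gnc gnl groups deviated together (r of 0.132 to 0.348 over genes), and the fit with the replicate block called 18 members up and 3 down there, against 19 up and 2 down without it.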

Additional observations from a re-analysis of the deposited data

Results flagged for a closer look

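A difference between contrasts was noted for 4 members, because the difference between the libraries labelled arf2 gnc gnl and gnc gnl was unlike that between arf2 and WT in limma's interaction term. For M17 the term was -2.52 (adjusted p = 0.0152), for RAB28 -1.31 (adjusted p = 0.0359), for SAG21 -1.15 (adjusted p = 0.0392) and for UNE15 1.73 (adjusted p = 0.00915), 4 of 41 tested members. The calls of M17 and UNE15 stood in all 12 fits without 1 library, and those of SAG21 and RAB28 were lost in 8 and in 10 of them, with adjusted p of at most 0.0957 and 0.0836. The SAG21 call held without arf2 replicate 3, gnc gnl replicate 1 or 3 or labelled replicate 3, and the RAB28 call without arf2 replicate 3 or gnc gnl replicate 2. With slide as a fixed block M17 gave -3.33 (adjusted p = 0.0391), RAB28 -1.76 (0.0721), SAG21 -1.04 (0.199) and UNE15 1.76 (0.0527). All 4 terms rest on the libraries in which ARF2 stood at 54.4% to 70.6% of WT and GNL at 168% to 180%.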

How the results depend on the processing

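Among the counts of called members, those of arf2 against WT ran from 20 to 26 without 1 library, gnc gnl against WT from 5 to 12, the labelled libraries against WT from 6 to 19, against arf2 from 0 to 18 and against gnc gnl from 11 to 26, arf2 against gnc gnl from 31 to 32, and the interaction from 2 to 6. With normexp the counts in that order were 14, 4, 1, 0, 4 and 28, and 0 for the interaction. Where normexp gave 0 in limma, 20 members against arf2 and 11 for the interaction had an unadjusted p under 0.05. With slide as a fixed block, gnc gnl against WT gave 1, the labelled libraries 0 against WT, 0 against arf2 and 1 against gnc gnl, arf2 against gnc gnl 2, and the interaction 1, while arf2 against WT gave 20. Single slides gave 25 for arf2 against WT, and 0 and 0 for the labelled libraries against arf2 and gnc gnl (24 and 11 at an unadjusted p under 0.05). On slides 1 and 3 the lone arf2 or labelled array was assumed to vary like the other group. With slide as a fixed block, the changes of arf2 from WT and of the labelled libraries from gnc gnl rested on the same lone arrays. The labelled libraries against arf2 gave 15 without the filter and 17 with only the groups compared, and the interaction gave 2 without the filter. Where the values 0 arose without arf2 replicate 2 or labelled replicates 2 or 3, unadjusted p was under 0.05 for 16, 21 and 13 members. The cause was not tested. In the alternatives, unadjusted p was counted for the members only, so those counts have no share over all genes beside them. Over all genes, arf2 against WT called 1080, and 113 with normexp, 451 with the slide block and 694 without the filter, gnc gnl 4664, 2185, 29 and 3728, and the labelled libraries 431, 15, 6 and 221. Random slide effects, quantile normalization, the stricter filter, outlier spots kept and the mean of all probes left each count within 1.5 times its value.

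Same-numbered libraries of the labelled and arf2 groups also deviated together, with r of 0.043 to 0.207. In the remaining comparisons the sign was mixed, with r of -0.367 to 0.370. In these 5 comparisons the fit with the replicate block called 25, 8, 15, 8 and 31 members, and 4 for the interaction. Against arf2, that fit called 1 member of the labelled libraries up and 7 down, where the main fit called 0 up and 9 down. Some changes too small to be called turned sign. AT2G23120 in the labelled libraries against WT (-0.0039) became 0.0055 with quantile normalization, 0.046 with normexp, 0.0068 with outlier spots kept, 0.043 with the mean of all probes, 0.37 and 0.0012 with slide as a fixed and random block, and ran from -0.15 to 0.13 without 1 library. In gnc gnl against WT, LEA7 (-0.05) became 0.055 with normexp, 0.76 with slide as a fixed block, and ran from -0.44 to 0.39 without 1 library. DI21 (-0.04) became 0.030 with the mean of all probes, 0.41 with the slide block, and ran from -0.29 to 0.17 without 1 library. RAB28 (0.33) became -0.35 with normexp, and LEA4-5 (0.20) ran from -0.27 to 0.69 without 1 library.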
